A study of Mus musculus with 28 samples.

Results

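The RNAs recovered with the kinase PKR were compared between mouse embryonic fibroblasts (MEFs) carrying wild-type PKR (WT) and MEFs carrying PKR mutated in both of the motifs with which it holds double-stranded RNA (RM), all given 0.1 mM palmitic acid. The members are the 3 WT and 3 RM palmitate libraries of dataset A, 6 of the 28 samples of the series, joined over the 30210 features of the deposited count tables. In every library PKR was immunoprecipitated from cell lysate, and the RNA that came down with it was fragmented and sequenced with a small-RNA library kit. The replicates of datasets A and B are described as biological. The labels do not say whether each cell population is 1 clone or a pool, nor on which day or run each genotype was prepared, so genotype and preparation cannot be told apart.

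PKR, encoded by Eif2ak2, is an interferon-induced kinase that phosphorylates the translation factor eIF2α once its tandem motifs hold such RNA. Known cellular sources of it include the mitochondrial genome, which is transcribed along its whole length on both strands, and messenger RNAs whose untranslated regions carry repeats in opposite orientation that can fold back on each other. C/D box small nucleolar RNAs (snoRNAs), which guide ribose methylation of ribosomal RNA, have been linked to lipid stress, and palmitate is the saturated fatty acid commonly used to produce such stress in culture.

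The WT palmitate libraries held 7555175, 5185248 and 3249858 counts and the RM palmitate libraries 6851012, 254762 and 5834156. RM replicate 2 is therefore far shallower than the other 5, and a single count in it is worth 3.45 CPM (counts per 1e6 counts, scaled by the trimmed mean of M values, TMM, as in every CPM value given, with no background taken off) against 0.138 to 0.343 CPM elsewhere. It stands apart in content as well: nuclear rRNA features took 35.5% of its counts against 12.6% in each other RM library, and its rank correlation with them was 0.746 and 0.725, against 0.964 between those libraries. The main results are given with and without it. Fibroblast markers were present in all 6 libraries, and 10 of 12 passed the count filter with none past the test, whereas 0 of 12 myeloid and lymphoid and 0 of 8 epithelial markers passed that filter. Ptprc, Adgre1, Cd3e, Krt5 and Krt14 had no counts in any of the 6. Of 7 endothelial markers, 2 passed the filter, and 1 of these, Tek, was lower with WT past the test. Their median log2 fold change of WT over RM was -1.42. Of 10 adipocyte and muscle markers, 1 passed the filter and did not pass the test. No input RNA or control immunoprecipitate is among the samples analysed, so a transcript's abundance in the cell, its recovery with PKR and carry-over cannot be told apart, nor can fewer cells and less RNA per cell.

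Of 11328 features that passed the filter on low counts, 388 (3.43%) differed between WT and RM at a Benjamini-Hochberg adjusted p under 0.05 in edgeR's quasi-likelihood test. With WT 282 were higher (2.49% of those tested) and 106 lower (0.936%), and the median log2 fold change of all features was 0.02. The WT libraries all lay above the RM libraries in 259 of the 282 (11.6% of all features tested) and below them in 74 of the 106 (7.05% of all). Without RM replicate 2 the test called 612 of 11630 features (5.26%), 373 higher (3.21%) and 239 lower (2.06%), and of the original calls 276 of 282 and 104 of 106 held. The balance of the calls depends on the scaling: with plain total counts, which shifted the median log2 fold change of all features to -0.39, 134 were higher and 387 lower. The number called fell to 212 without WT replicate 2, to 201 without RM replicate 1 and to 235 without RM replicate 3, and rose to 759 without WT replicate 1. The spread was estimated with the mock libraries of dataset A included. A fit of only the 6 libraries compared called 133 of 10556 features, 112 higher and 21 lower.

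**Figure D1:**
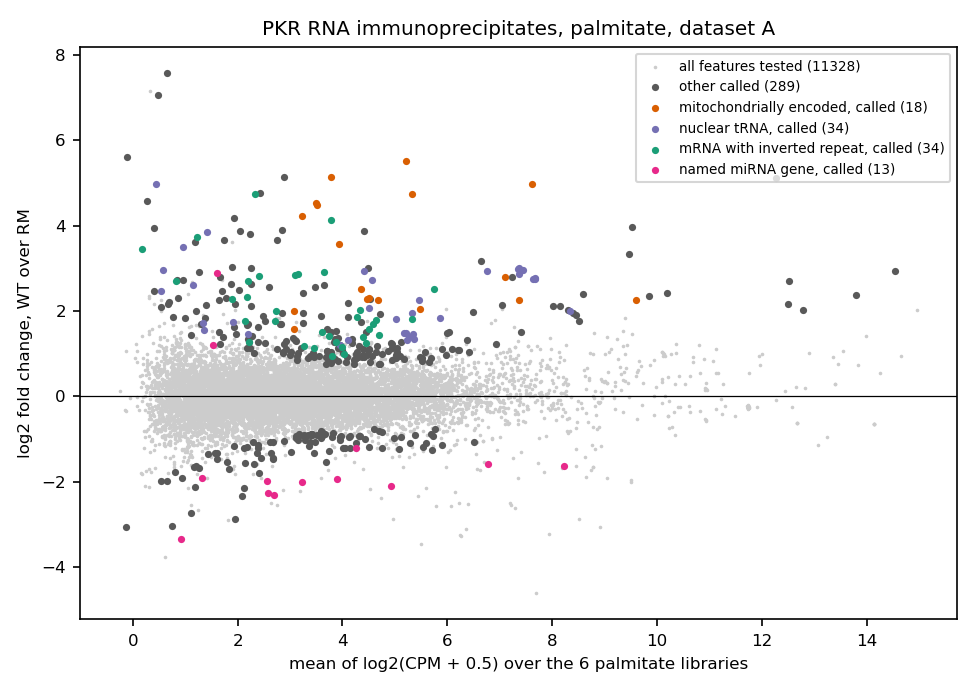
Log2 fold change of WT over RM under palmitate against the mean of log2(CPM + 0.5) over the 6 libraries of dataset A, one point per feature. Called features are coloured by kind: the 18 mitochondrially encoded, 34 nuclear tRNA and 34 inverted-repeat features all lie above 0, and 11 of the 13 named miRNA genes lie below it.

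The kinds of RNA called were unevenly spread. Mitochondrially encoded features were called most often, 18 of 36 tested, all higher with WT. Nuclear rRNA features followed with 20 of 98 and nuclear tRNA features with 34 of 221, again all higher. Without RM replicate 2, 21 mitochondrial, 28 rRNA and 37 tRNA features were called, all higher. The median log2 fold change of the 98 rRNA features was -0.21, with 46 positive, and 0.54 without RM replicate 2. Protein-coding mRNAs, at 167 higher and 86 lower of 9769 (2.59% called), lay near the background share of 3.43%.

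The mitochondrial transfer RNAs that moved most are shown first, with the anticodon in capitals, beside mt-Tm, which did not pass the test. The sequences are those of the GENCODE M21 transcripts.
mt-Ti: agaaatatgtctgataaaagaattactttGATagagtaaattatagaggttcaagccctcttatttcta
mt-Ts1: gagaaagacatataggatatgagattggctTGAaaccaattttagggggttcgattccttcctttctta
mt-Tt: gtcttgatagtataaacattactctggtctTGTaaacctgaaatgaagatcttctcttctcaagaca
mt-Tw: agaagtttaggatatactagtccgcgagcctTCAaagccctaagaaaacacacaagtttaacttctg
mt-Tm: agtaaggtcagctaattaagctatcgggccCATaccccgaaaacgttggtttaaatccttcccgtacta

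The largest fold changes belonged to features coded on the light strand and to some of their neighbours. The light strand of the mitochondrial genome codes for few genes, namely mt-Nd6, a subunit of respiratory complex I, and a handful of tRNAs, while the heavy strand codes for the ribosomal RNAs and nearly all the messages. Of the 9 light-strand coded features tested, 8 were higher with WT, with a median log2 fold change of 2.81. The ninth, mt-Te, had a log2 fold change of 1.05 ± 0.34 (SE, adjusted p = 0.0909 by edgeR) and passed without RM replicate 2 (1.41, adjusted p = 0.00301). Of the 27 heavy-strand coded features, 10 were higher and none lower, with a median of 1.39. Over all features tested, 2.49% were higher and 0.936% lower.

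mt-Ti, the isoleucine tRNA (mm9, chromosome M from 3706 to 3774), had 148, 289 and 406 CPM in WT replicates 1 to 3 and 3.36, 3.45 and 9.39 CPM in RM. All WT libraries stood far above all RM libraries, and the log2 fold change was 5.50 ± 0.49 (SE, adjusted p = 2.55e-06 by edgeR). It overlaps the light-strand coded mt-Tq by a few bases. mt-Tq itself stood at 187, 412 and 529 CPM in WT and at 50.7, 69 and 47.5 CPM in RM, again without overlap (log2 fold change 2.81 ± 0.42, adjusted p = 0.000463).

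mt-Nd5, a complex I subunit message (mm9, chromosome M from 11742 to 13565), had 653, 1207 and 1796 CPM in WT and 27.2, 24.1 and 58.1 CPM in RM. Every WT library lay far above every RM library, and the log2 fold change was 4.98 ± 0.51 (adjusted p = 1.03e-05 by edgeR). Its neighbour on the other strand, mt-Nd6, had 94.5, 170 and 287 CPM in WT and 4.9, 27.6 and 5.38 CPM in RM. The features overlap, and whether strand was used in counting is not given in the sources used here, so reads of the pair cannot be told apart where they do. For mt-Nd6 RM replicate 2 was the highest of the RM libraries, and the log2 fold change rose from 4.75 to 5.13 without it.

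The serine tRNA mt-Ts1 (log2 fold change 5.14 ± 0.50), which lies against the end of the mt-Co1 message on the other strand, had 50.7, 106 and 179 CPM in WT and 3.08, 0 and 3.45 in RM. The threonine tRNA mt-Tt and the proline tRNA mt-Tp, side by side on opposite strands, had log2 fold changes of 4.53 ± 0.41 and 3.58 ± 0.39. The tryptophan and tyrosine tRNAs mt-Tw and mt-Ty had 4.48 ± 0.40 and 4.24 ± 0.52. All WT libraries were above all RM libraries for these 5 features.

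Other heavy-strand RNAs differed less or not past the test, and some of them also lie beside light-strand coded genes. The ribosomal RNA mt-Rnr2, the large subunit rRNA, had 7236, 8962 and 7958 CPM in WT and 8034, 3844 and 9171 CPM in RM, and the groups overlapped (log2 fold change 0.20 ± 0.47, adjusted p = 0.869 by edgeR). For the small subunit rRNA mt-Rnr1 the log2 fold change was -0.26 ± 0.47 (adjusted p = 0.82). The methionine tRNA mt-Tm, next to mt-Tq in gene order, had -0.04 ± 0.29 (adjusted p = 0.967) and the leucine tRNA mt-Tl1 also -0.04. The sign of these 4 values turned in at least 1 of the alternative analyses. Among the other messages mt-Co1, mt-Cytb and mt-Nd4l were higher with WT, at log2 fold changes of 2.25, 2.26 and 2.31, and mt-Nd4 at 2.04 missed the threshold (adjusted p = 0.0569). As a share of all counts, mitochondrially encoded RNA did not separate the genotypes, at 1.14, 1.81 and 2.15% in WT and 1.31, 1.11 and 2.3% in RM (exact permutation test, two-sided, p = 0.9, where 0.1 is the smallest that 3 against 3 allows).

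**Figure D2:**
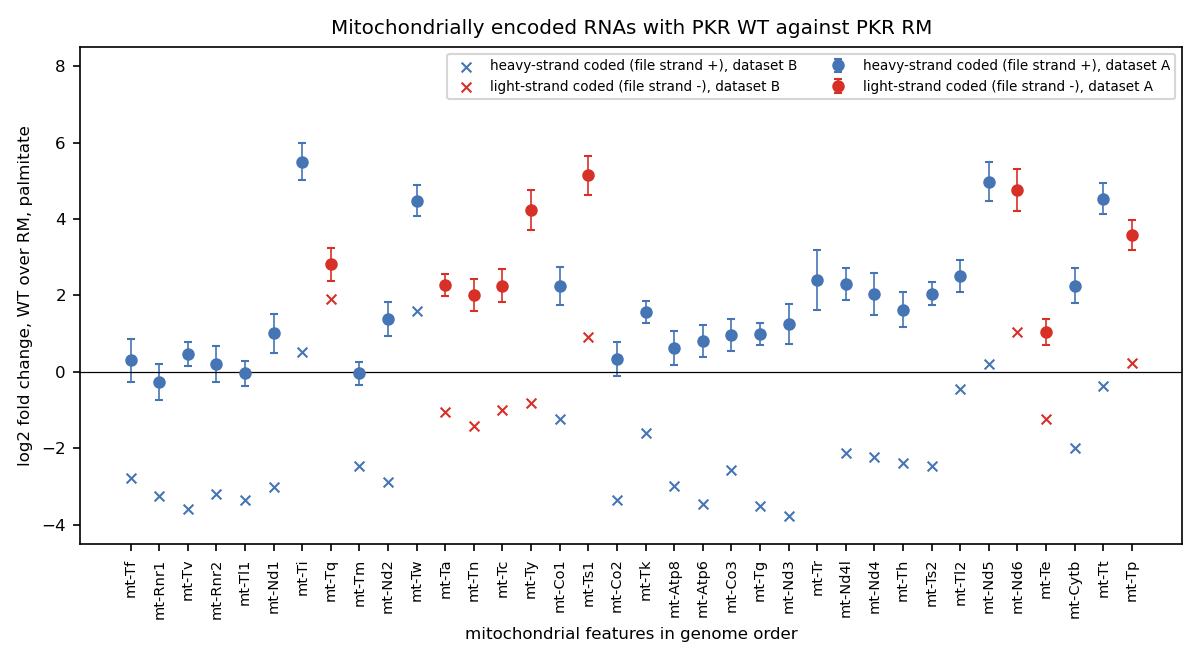
Log2 fold change of WT over RM under palmitate for the mitochondrial features tested, in genome order and coloured by coding strand. Circles with SE bars are dataset A and crosses dataset B: in dataset A mt-Ti, mt-Ts1, mt-Nd5, mt-Nd6, mt-Tt and mt-Tw lie above 4 while mt-Rnr1, mt-Rnr2, mt-Tl1 and mt-Tm lie near 0.

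Messenger RNAs with inverted repeats were also frequent among those higher with WT. After the called genes had been seen, the transcript of each long nuclear feature tested was searched for its best stretch of self-complementary sequence, scored as +1 a match, -1 a mismatch and -2 a gap, and a score of at least 50 was taken as an inverted repeat. Of 9958 transcripts searched, 179 (1.8%) had one. Among the 171 transcripts called higher with WT 34 had one (19.9%). Among the 88 called lower 0 had one, which allows a share of up to 3.41%. Both arms lay in the 3′ untranslated region in 33 of the 34 called, and in 156 of all 179. Of the 179, 34 were called higher, against a background of 2.49%, 0 were called lower, and their median log2 fold change was 0.19. With minimum scores of 40 and 80 the share among those called higher was 21.6% and 9.94%, against 3.11% and 0.653% of all transcripts. Just inside the threshold, at a score of 50, Hinfp had a log2 fold change of 1.06 and Qk -0.81, and just outside, at 49, Phlpp1 had 0.43 and Zfp865 -0.64.

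Long transcripts have more room for a repeat, and the median length was 3231 bases for those called higher and 3372 for all. Within each length class above 2000 bases a larger share of transcripts with a repeat was called: 9 of 31 against 69 of 3909 without one between 2000 and 4000 bases, and 17 of 59 against 23 of 2208 between 4000 and 6000. Between 6000 and 8000 bases the counts were 4 of 32 against 10 of 912, and above 8000 bases 4 of 55 against 3 of 606. Most transcripts with a repeat were not called. All 34 kept their call without RM replicate 2, and the number of repeat transcripts called higher was 22 without RM replicate 1 and 44 without WT replicate 1.

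**Figure D3:**
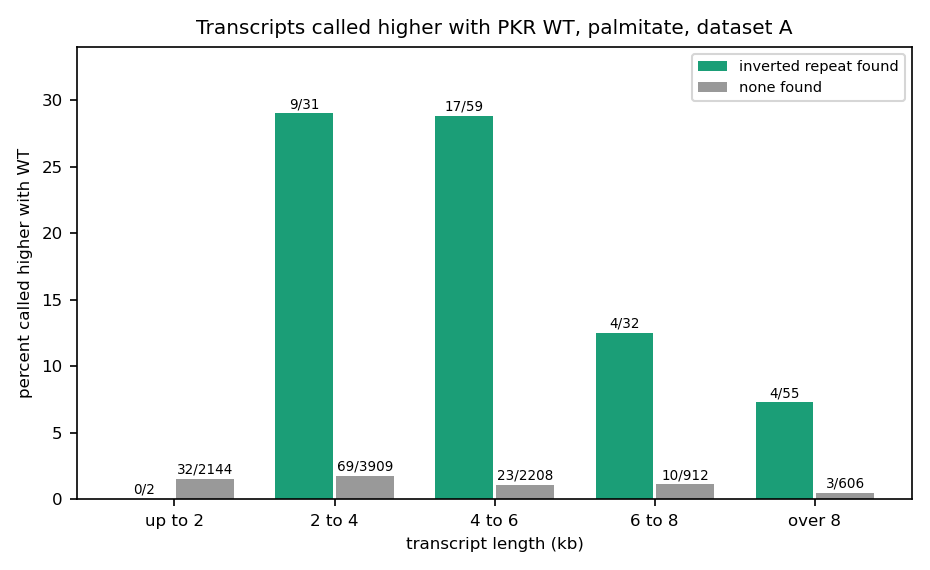
Percent of transcripts called higher with WT under palmitate in dataset A, by transcript length in kilobases, for transcripts with an inverted repeat (green) and without (grey), with the counts above each bar. In the 2 to 4 kb class 29% of repeat transcripts were called against 1.77% of the others.

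The genes named here are those with the highest fold changes among the 34, with Rpa1 and Nudt21 chosen after their values were seen. Car5b, a mitochondrial carbonic anhydrase (mm9, chromosome X from 160414754 to 160465929), carries arms of 165 bases set 202 bases apart. It had 12.8, 27.6 and 39.8 CPM in WT and 0.981, 0 and 0.966 CPM in RM, without overlap (log2 fold change 4.73 ± 0.48, adjusted p = 3.25e-05 by edgeR). Eapp, an E2F-associated phosphoprotein (mm9, chromosome 12 from 55771327 to 55796884), carries arms of 200 bases set 165 apart. It stood at 26, 62.5 and 79.6 CPM in WT and at 2.38, 3.45 and 3.86 CPM in RM (log2 fold change 4.13 ± 0.47, adjusted p = 0.000201). In both genes WT replicate 1 was the lowest WT library and still lay above every RM library.

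Slc35e2 had the longest arms of these, 543 bases, and a log2 fold change of 2.92 ± 0.34 (adjusted p = 7.64e-05 by edgeR). It shares sequence with a feature on the other strand, Gm10563. Rnf168, a ubiquitin ligase of the DNA damage response, had 2.84 ± 0.41, Wdr76 had 2.87 ± 0.48, and the zinc finger genes Zfp874b and Zfp626 had 2.82 ± 0.38 and 2.69 ± 0.65. C330018D20Rik, an unnamed gene, had 2.69 ± 0.36. Lrrn4cl, at 3.74 ± 0.72, and Gm9776, at 3.45 ± 0.84, rested on few counts, with WT levels of at most 5.22 CPM. Wdr76, Lrrn4cl and Zfp626 lost their calls without RM replicate 1 (adjusted p = 0.052, 0.0574 and 0.157 by edgeR), and Gm9776 without RM replicate 3 (0.155). Gm9776 and Zfp626 also lost theirs without WT replicate 2 or WT replicate 3. Rpa1, the large subunit of the single-stranded DNA binding protein RPA, had 69.6, 136 and 178 CPM in WT and 19.9, 31 and 22.2 CPM in RM. Nudt21, a cleavage factor of polyadenylation, had 11, 25.2 and 20.9 CPM against 3.78, 0 and 5.8 CPM. Both were higher with WT in every library, by 2.51 ± 0.34 and 2.01 ± 0.35 on the log2 scale.

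Of the 171 transcripts called higher with WT, 137 scored below the threshold. Among these was Tapbp, with a score of 45. Tapbp, the tapasin of antigen presentation, had 214, 348 and 515 CPM in WT and 47.2, 10.3 and 49.3 CPM in RM (log2 fold change 3.16 ± 0.44, adjusted p = 0.00022 by edgeR). It overlaps Zbtb22 in the files' annotation.

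PKR is itself a product of the interferon response, and genes of that response include the IFIT RNA-binding proteins and the OAS family, which sense viral RNA. Of 63 such genes in the files, 46 were tested, and 12 were higher with WT and none lower, against 2.49% and 0.936% of all features. Their median log2 fold change was 0.84 and 44 of the 46 were positive. Without RM replicate 2, 15 were higher. The count fell to 6 without WT replicate 2, 6 without RM replicate 1 and 5 without RM replicate 3, and DESeq2 called 7. No interferon-stimulated gene that was called carried an inverted repeat.

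Ifit1, which binds foreign 5′ ends of RNA, had 9.33, 14.1 and 13.7 CPM in WT and 1.54, 3.45 and 2.48 CPM in RM, without overlap (log2 fold change 2.56 ± 0.36, adjusted p = 0.000228 by edgeR). Ifit3 and Ifit3b were higher by 2.62 ± 0.41 and 2.91 ± 0.43 on the log2 scale, and Oasl2, an OAS-like protein, by 2.49 ± 0.39. Ifit2, of the same family, had a log2 fold change of 0.04 ± 0.29 (adjusted p = 0.982). Dtx3l, a ubiquitin ligase paired with Parp9, had 13.4, 20 and 23 CPM in WT against 5.04, 3.45 and 4.55 CPM in RM (1.95 ± 0.28). Ifit1, Ifit3, Ifit3b, Oasl2 and Dtx3l kept their call in every alternative analysis run for them. Trim30a (1.67 ± 0.31, adjusted p = 0.00325) lost its call only with total counts, at adjusted p = 0.0623, and without RM replicate 3, at 0.051.

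Other calls in this list were nearer the threshold. Zc3hav1, the zinc finger antiviral protein, stood at 35.2, 53.3 and 65.9 CPM in WT and 27.5, 13.8 and 25.1 CPM in RM (adjusted p = 0.0198 by edgeR). Usp18, Rtp4, Ifi44 and Samd9l had adjusted p between 0.0207 and 0.0413. These 5 genes lost their call in several alternatives, among them total counts, where Samd9l had adjusted p = 0.407. Ifih1 and Dhx58, the RNA sensors MDA5 and LGP2, had log2 fold changes of 1.51 and 1.26 that did not pass (adjusted p = 0.0613 and 0.0777).

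Eif2ak2, the gene for PKR itself, did not differ past the test, with 6.88, 8.05 and 15.4 CPM in WT and 9.39, 17.2 and 16.3 CPM in RM (log2 fold change -0.45 ± 0.30, adjusted p = 0.466 by edgeR). Since the proteins differ by mutations within the coding sequence, the level of the gene does not check the labels. Eif2ak2 is counted among the interferon-stimulated genes above. As the gene altered between the cells, it need not follow that response. Of 22 genes for PKR, its relatives, substrates and partners, none was higher and 1 was lower, against 2.49% and 0.936% of all features. That gene was Ppp1r15a, the stress-induced eIF2α phosphatase subunit. It stood at 0.819, 1.31 and 1.03 CPM in WT and at 2.24, 0 and 5.24 CPM in RM, where RM replicate 2 had no counts, so the groups overlapped (adjusted p = 0.0409, and 0.423 without RM replicate 3). Prkra, the PKR activator PACT, had a log2 fold change of 0.19 (adjusted p = 0.816). Dicer1 had -0.30 (adjusted p = 0.577), and none of the 11 genes of the Dicer pathway passed edgeR's test, with 2 at an unadjusted p under 0.05 and 1 called lower by DESeq2. Over all features, 2050 of 11328 stood at such an unadjusted p.

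**Figure D4:**
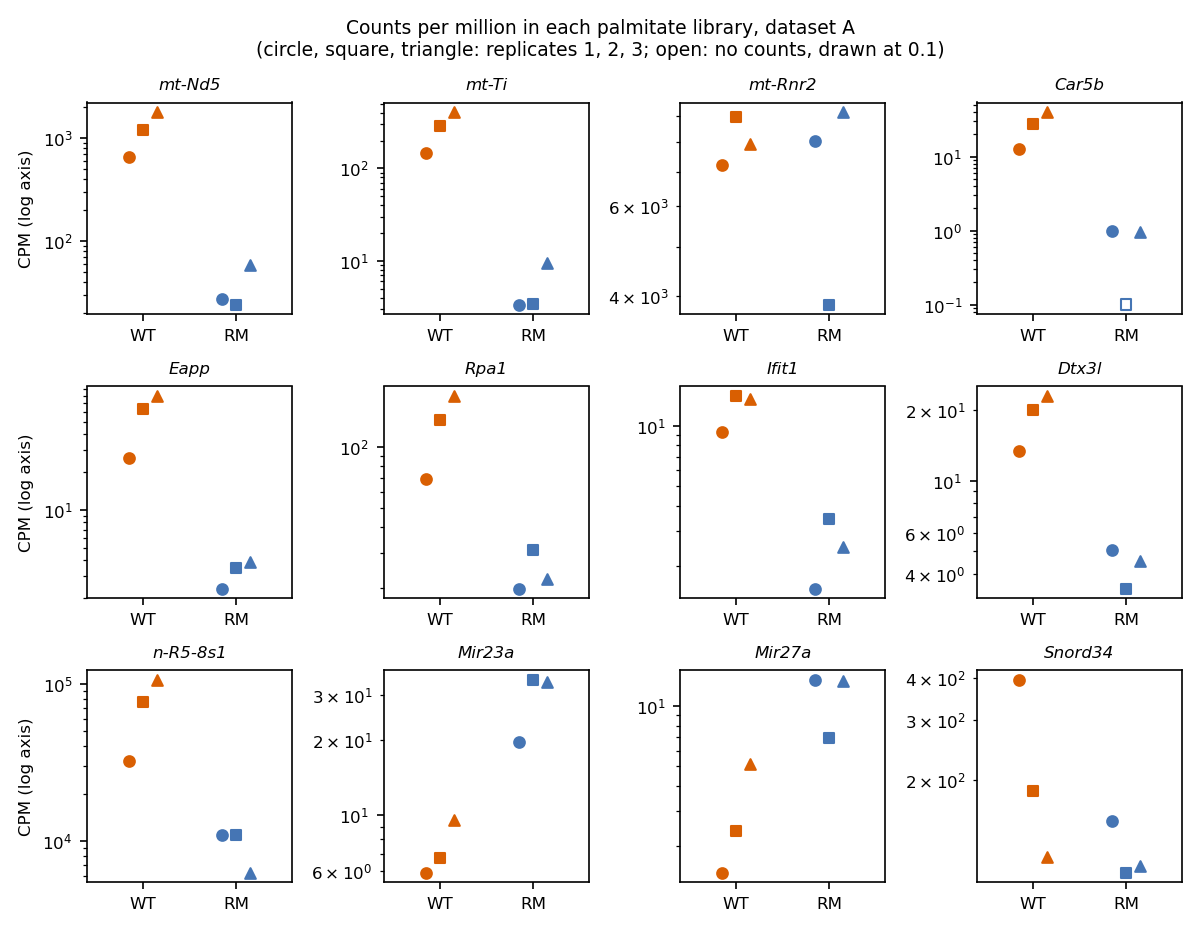
CPM on a log axis for 12 features in each palmitate library of dataset A, WT in orange and RM in blue, with symbols for the replicates. WT and RM separate for mt-Nd5, mt-Ti, Car5b, Eapp, Rpa1, Ifit1, Dtx3l, n-R5-8s1, Mir23a and Mir27a, and overlap for mt-Rnr2 and Snord34.

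The nuclear tRNA features called were led by glutamate tRNAs: all 10 tRNA-GluCTC features tested and 6 of 8 tRNA-GluTTC features were higher with WT. Over all features tested, 2.49% were higher. The 10 GluCTC features together had 2500, 4210 and 8280 CPM in WT and 802, 396 and 985 CPM in RM, without overlap, with single log2 fold changes of 1.72 to 3.01. Copies of a tRNA are nearly identical, so these 10 are not separate observations. LysTTT features were called in 4 of 9, and 12 of the 41 anticodons had any called feature. The largest single value was that of chr16.tRNA50-ThrCGT (log2 fold change 4.99 ± 0.87), at 1.31, 3.05 and 5.49 CPM in WT and 0, 0 and 0.138 CPM in RM.

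Among rRNA features, n-R5-8s1, a copy of the 5.8S rRNA, had 32129, 76090 and 105376 CPM in WT and 10828, 10857 and 6260 CPM in RM, without overlap (log2 fold change 2.93 ± 0.61, adjusted p = 0.00884 by edgeR). Of 30 features named as 5S rRNA, 12 were higher and none lower, against 2.49% and 0.936% of all features. Without RM replicate 2, 16 were higher. Gm23935, a short feature annotated as miRNA inside the gene Zc3h7a on its other strand, had 13433, 30701 and 51032 CPM in WT and 841, 752 and 1145 CPM in RM (log2 fold change 5.12 ± 0.67, adjusted p = 0.000164). AA474408 was higher by 2.70 ± 0.53 on the log2 scale. Lars2, the mitochondrial leucyl-tRNA synthetase gene, held 3.16, 5.98 and 8.57% of the counts in WT and 1.35, 2.36 and 1.98% in RM. The groups did not overlap, but its test missed the threshold (log2 fold change 2.03 ± 0.57, adjusted p = 0.0527) and passed without RM replicate 2 (adjusted p = 0.0145). Repeated rRNA sequence makes the assignment of reads to any 1 of these features uncertain.

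The predicted genes Gm10718 and Gm10719 had no counts in any RM palmitate library. Against a floor of 3 counts over the RM group they were at least 24.2-fold and at least 17.7-fold higher with WT, where they had 2.29, 7.4 and 5.15 CPM and 2.13, 3.26 and 5.49 CPM. Both lie opposite the same unnamed feature on the other strand.

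Among the features higher with WT, most had the same order of WT libraries. WT replicate 1 was the lowest of the WT libraries in 247 of the 282 features called higher, in all 18 mitochondrial and all 34 inverted-repeat features among them, and WT replicate 3 was the highest in 220. For interferon-stimulated genes the counts were lower, with WT replicate 1 lowest in 8 and WT replicate 3 highest in 6 of the 12 called. Replicate 1 is the deepest of the WT libraries and replicate 3 the shallowest. The part of depth in this pattern was not tested.

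The C/D box snoRNAs hosted in the introns of Rpl13a are shown for the study's interest in them, with the C box (around the core TGATG, near the 5′ end) and the D box (CTGA, near the 3′ end) in capitals, from GENCODE M21.
Snord32a: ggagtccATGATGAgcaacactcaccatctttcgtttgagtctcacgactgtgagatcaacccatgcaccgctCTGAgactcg
Snord33: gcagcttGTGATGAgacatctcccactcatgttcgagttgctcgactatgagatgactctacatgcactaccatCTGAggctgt
Snord34: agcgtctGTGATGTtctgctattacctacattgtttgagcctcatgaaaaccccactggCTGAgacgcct
Snord35a: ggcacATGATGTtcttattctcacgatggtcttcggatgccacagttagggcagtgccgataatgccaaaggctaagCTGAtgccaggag

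No C/D box snoRNA passed the test, of 71 tested, nor did any of the 37 H/ACA box snoRNAs, which guide pseudouridylation. At an unadjusted p under 0.05 in edgeR's test stood 11 C/D and 10 H/ACA box snoRNAs, and DESeq2 called 1 and 0. Over all 11328 features tested, 3.43% passed edgeR's test and 2050 stood at an unadjusted p under 0.05. The C/D log2 fold changes ran from -0.66 to 1.83 with a median of 0.67, and 67 of the 71 were positive. This tilt rested on 1 library: in 64 of the 71 the highest of the 6 libraries was WT replicate 1, and without it the median was 0.10 with 42 positive. Without RM replicate 2 the median was 0.55. As a share of counts, C/D snoRNAs took 16.3, 10.1 and 5.04% in WT and 8.59, 3.08 and 11.1% in RM, so the groups overlapped (exact permutation test, two-sided, p = 0.5).

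The 4 Rpl13a snoRNAs had log2 fold changes of 0.85 ± 0.72 for Snord32a, 0.45 ± 0.42 for Snord33, 0.90 ± 0.50 for Snord34 and 0.70 ± 0.53 for Snord35a. Their adjusted p ran from 0.372 to 0.618 in edgeR's test, and none passed in any of the alternatives. Snord34 had 393, 186 and 119 CPM in WT and 152, 107 and 112 CPM in RM, with only WT replicate 1 far above the rest. Snord32a had 2733, 1748 and 832 CPM in WT and 667, 162 and 2103 CPM in RM, where RM replicate 3 exceeded 2 of the WT libraries.

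In mock-treated cells of dataset A the C/D median was -0.65, with 2 of 71 positive. The difference between the palmitate and the mock genotype contrasts had a median of 1.28 over C/D snoRNAs and 0.00 over all features, and none of these snoRNAs passed that test of the difference.

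**Figure D5:**
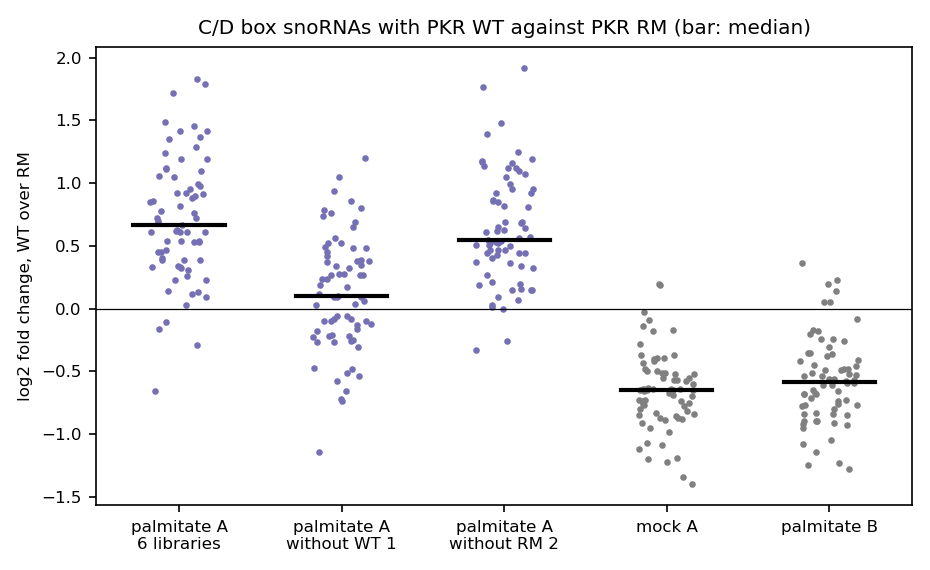
Log2 fold change of WT over RM for the C/D box snoRNAs tested, one point each, with the median as a bar. In dataset A under palmitate the median is 0.67 with all 6 libraries and 0.10 without WT replicate 1, and it is -0.65 in mock cells and -0.58 in dataset B under palmitate.

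Features annotated as miRNA moved in both directions. Of 178 features with a miRNA name, a few of them host transcripts, 11 were lower and 2 higher with WT, against 0.936% and 2.49% of all features, with a median log2 fold change of -0.31. They took 2.28, 3.39 and 4.28% of the counts in WT and 6.29, 3.18 and 7.64% in RM, so the groups overlapped. The 38 other features that the annotation classes as miRNA, which carry predicted gene names or identifiers only, went mostly the other way, with 13 higher and 3 lower. These took 4.61, 8.46 and 15.1% of the counts in WT and 1.58, 0.99 and 3.11% in RM, without overlap, and Gm23935, described above, is one of them. The count of 11 named features lower with WT fell to 4 without WT replicate 2 and to 5 without RM replicate 3. Each feature covers a hairpin, so the arms are not separated and the level of a mature miRNA is not given. Mature sequences from the called genes Mir23a, Mir27a, Mir192 and Mir92-2 are shown with the seed, bases 2 to 8, in capitals, from RefSeq (GRCm38.p6). No 2 of these seeds are identical.
miR-23a-3p: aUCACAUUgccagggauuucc
miR-27a-3p: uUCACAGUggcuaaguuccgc
miR-192-5p: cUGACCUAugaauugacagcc
miR-92a-3p: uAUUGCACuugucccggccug

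Mir23a and Mir27a come from 1 precursor transcript (mm9, chromosome 8, from 86732417 to 86732491 and from 86732571 to 86732657). Mir23a had 5.89, 6.75 and 9.6 CPM in WT and 19.5, 34.5 and 34 CPM in RM, without overlap (log2 fold change -1.94 ± 0.27, adjusted p = 0.000219 by edgeR). Mir27a had 1.47, 2.39 and 5.15 CPM in WT and 13.5, 6.9 and 13.3 CPM in RM (-2.28 ± 0.39, adjusted p = 0.00213). Both kept their call in every alternative analysis. The next member of that precursor, Mir24-2, did not share the direction, with 25.9, 17.2 and 16.5 CPM in WT and 20.9, 3.45 and 12.4 CPM in RM (0.36 ± 0.55, adjusted p = 0.79).

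Mir192 had a log2 fold change of -2.0 ± 0.32 (adjusted p = 0.00095 by edgeR), and Mir486, which lies within Ank1, had -2.11 ± 0.39 (adjusted p = 0.00844). These kept their call in every alternative. Mir23b (-1.21), Mir143 (-1.64), Mir199b (-1.59), Mir92-2 (-1.99) and Mir344d-1 (-3.35) also passed, and each lost its call without at least 1 library. Mir92-2 averaged 3.44 CPM in WT and 10.6 CPM in RM. The more abundant Mir92-1, of the same family, averaged 75.5 and 153 CPM and did not pass (-1.04 ± 0.34, adjusted p = 0.101 by edgeR). Mir344d-1 rested on few counts, at 0.218 to 0.686 CPM in WT and 1.96 to 6.07 CPM in RM. The abundant Mir10b stood at 3447, 7046 and 8732 CPM in WT and 19483, 6078 and 16690 CPM in RM. Its groups overlapped through RM replicate 2 (adjusted p = 0.28), and without that library its log2 fold change was -1.51 (adjusted p = 0.0455). It passed in only that 1 of 15 alternatives. Its feature overlaps Hoxd3 and Hoxd4. Of the 9 let-7 genes none passed in edgeR or in DESeq2, and 3 had an unadjusted p under 0.05 in edgeR, as had 2050 of all 11328 features.

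Apart from named miRNAs, the lowest fold changes belonged to transcripts of low level. Sorbs2, an adaptor protein of the actin cytoskeleton, had 1.96, 1.52 and 1.03 CPM in WT and 7.43, 10.3 and 8.7 CPM in RM, without overlap (log2 fold change -2.33 ± 0.35, adjusted p = 0.00048 by edgeR), and kept its call in every alternative. The neural adhesion gene Chl1 (-3.04 ± 0.60), the cytokine signalling inhibitor Socs3 (-2.14 ± 0.42) and the receptor Tek (-2.12 ± 0.44), the 1 endothelial marker called, each lost the call without 1 RM library. Gm24589, a predicted miRNA feature within Pkd1, had -2.88 ± 0.56 and lost its call without WT replicate 2 or RM replicate 3 (adjusted p = 0.0517 and 0.06). Nol4l had -1.90 ± 0.49 and passed in 7 of 14 alternatives.

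Immediate-early genes, the first transcripts induced by growth factors, had a median log2 fold change of -0.66 over 18 tested. Of these, 2 were lower, against 0.936% of all features, Egr1 (-1.47 ± 0.35, adjusted p = 0.0237 by edgeR) and Srf (-1.33 ± 0.34, adjusted p = 0.0356), and both lost their call without RM replicate 3. Without RM replicate 2, 5 were lower. Egr1 had 3.6, 3.05 and 4.12 CPM in WT and 6.31, 10.3 and 13.3 CPM in RM, without overlap.

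Genes of the response to fatty acids and to stress of the endoplasmic reticulum gave few calls. Except where RM replicate 2 is left out, the counts in this paragraph stand beside 2.49% of all features called higher and 0.936% called lower. Of 19 fatty acid response genes, 1 was lower, with a median of 0.08. This was Ppard, a nuclear receptor for fatty acids (-1.34 ± 0.33, adjusted p = 0.0305 by edgeR), which passed in 10 of 14 alternatives. Angptl4, a target of such receptors, had 26, 29.8 and 23.7 CPM in WT and 35.3, 58.6 and 28.7 CPM in RM (adjusted p = 0.379). Of 21 stress genes, 2 were higher, Xbp1 (1.22 ± 0.28, adjusted p = 0.0161) and Herpud1 (1.03 ± 0.27, adjusted p = 0.0361), with a median of 0.01. Both lost their call with total counts, among other settings. Xbp1 passed in 10 of 15 alternatives and Herpud1 in 6 of 14. Cdkn1c, an inhibitor of cyclin-dependent kinases, was higher by 2.12 ± 0.33 on the log2 scale (adjusted p = 0.000651). Of 62 histone genes, 2 were higher, Hist1h4c (1.50 ± 0.31) and Hist1h4h (1.19 ± 0.28), a share near that of all features. Hist1h4c passed in 12 and Hist1h4h in 10 of 15 alternatives. Of 78 ribosomal protein genes, 2 were lower, Rpl11 (-0.97 ± 0.22) and Rpl17 (-0.94 ± 0.23), with a median of -0.18. Rpl11 passed in 13 and Rpl17 in 11 of 15 alternatives. None of the 20 cholesterol synthesis, 25 DNA replication, 22 mitosis, 38 matrix or 70 nuclear respiratory chain genes passed edgeR's test, with 5, 3, 5, 3 and 7 at an unadjusted p under 0.05. DESeq2 called 1 of these genes, a matrix gene, lower. Without RM replicate 2, edgeR called 2 cholesterol synthesis genes and 1 mitosis gene lower. It then called 2 respiratory chain genes higher and 1 lower, and 4 ribosomal protein genes lower. Of the fatty acid response genes, 1 was then higher and 1 lower. In that fit 3.21% of all features were higher and 2.06% lower. Over all features, 2050 of 11328 stood at an unadjusted p under 0.05 in edgeR's test.

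The genotypes were also compared without palmitate. In the mock-treated libraries of dataset A, which are separate libraries in the same fit, 424 features (3.74%) differed, 343 higher (3.03%) and 81 lower (0.715%) with WT. Of the palmitate calls, 209 were called there too, all in the same direction, which is 53.9% of the palmitate calls and 49.3% of the mock calls. By direction, 192 of the 282 higher and 17 of the 106 lower features were called in mock. mt-Nd5 had a mock log2 fold change of 5.02 beside 4.98 under palmitate, mt-Ti 5.63 beside 5.50, Car5b 4.17 beside 4.73, Ifit1 2.18 beside 2.56, and Mir23a -1.31 beside -1.94. Of the 34 inverted-repeat transcripts, 32 were also higher in mock. Among those lower under palmitate, the mock values were nearer 0 for Egr1 (mock -0.77), Srf (-0.14), Ppard (-0.06) and Rpl11 (0.19). Choosing genes by their palmitate call favours mock values nearer 0.

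The difference between the palmitate and the mock genotype contrasts was tested for every feature. In edgeR's test 0 of 11328 passed, with 469 at an unadjusted p under 0.05, and DESeq2 and limma-voom also called 0. With no filter on low counts 88 passed. The smallest p belonged to Cisd1, a mitochondrial outer membrane protein, at -1.32 under palmitate and 0.76 in mock.

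Dataset B holds 3 other WT and 3 other RM palmitate libraries, fitted apart. The headers of its count columns, mock and palmitate alike, carry the mark 2hr, those of dataset A carry no time, and the sample labels give none, so time and dataset cannot be told apart. RM replicates 2 and 3 stand apart in it, with 43.2 and 32.0% of their counts in protein-coding mRNA against 58.8 to 63.1% in the other 4 palmitate libraries, and with 7.69 and 11% in mitochondrially encoded RNA against 0.908 to 4.44%. In dataset B 974 of 12466 features (7.81%) differed, 451 higher (3.62%) and 523 lower (4.2%) with WT. Of the 282 features higher in dataset A, 262 were tested there, of which 30 were higher and 16 lower. Of the 106 lower, 102 were tested, of which 14 were lower and none higher. Among the mitochondrial RNAs, mt-Nd5 averaged 149 CPM ± 56.4 (SD, n = 3) with WT and 131 CPM ± 69.5 with RM in dataset B, against 1218 CPM ± 572 and 36.5 CPM ± 18.8 in dataset A. Of 35 mitochondrially encoded features tested in both datasets, 1 was higher and 9 were lower with WT in dataset B, with a median log2 fold change of -2.11. The mitochondrial rRNAs were lower with WT in dataset B, mt-Rnr1 by a log2 fold change of -3.24 (adjusted p = 0.00205 by edgeR) and mt-Rnr2 of -3.19. Of the 34 repeat transcripts, 32 were tested in dataset B, of which 2 were higher and none lower, with a median log2 fold change of 0.13. Of 196 nuclear tRNA features tested in both, 0 were higher and 74 lower, with a median of -2.26, and none of the 10 GluCTC features was positive (median -1.91). Of 40 interferon-stimulated genes tested in both, 3 were higher and 1 lower, with a median of 0.16. The 1 lower was Eif2ak2, the gene for PKR and the one altered between the cells (log2 fold change -0.96, adjusted p = 0.0281 by edgeR). Ifit3 (1.78), Ifit1 (0.52), Mir23a (-1.45) and Mir27a (-1.22) kept the sign in dataset B without passing its test, Oasl2 (-0.25) and Trim30a (-1.08) had the other sign without passing it, and Cdkn1c (0.92, adjusted p = 0.0381) passed it.

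A fit of all 24 libraries of both datasets tested whether the genotype difference under palmitate itself differed, and 379 of 12683 features (2.99%) passed. Leaving out RM palmitate replicate 1, 2 or 3 of dataset B gave 756, 236 and 169, and leaving out RM palmitate replicate 2 of dataset A gave 450. Without both RM palmitate replicates 2 and 3 of dataset B, the libraries that stand apart, 33 passed, but that arm then holds 1 library, which is assumed to vary like the other groups. These fits were added after the data had been seen. The features named next were called in dataset A, and choosing them so favours a difference in that direction. For mt-Nd5 the log2 fold change in dataset A exceeded that in dataset B by 4.78 ± 0.78 (adjusted p = 0.00235 by edgeR, and at most 0.01 without any 1 RM palmitate library of dataset B). For Car5b the excess was 3.64 ± 0.72 (0.00699, and at most 0.0425), for Eapp 4.24 ± 0.56 (0.000255, and at most 0.00164) and for Rpa1 2.30 ± 0.36 (0.000624, and at most 0.00191).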

How the data were processed

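PKR immunoprecipitates were sequenced from MEFs after fragmentation with an Illumina small-RNA kit, per the labels' protocols. The submitters' processing notes name CASAVA 1.7.0 and 1.8.2, Novoalign and mm9. Neither counting tool nor strand setting is given in the sources used here. Deposited tables give raw counts per feature, per the file headers, and only these were used: 24 count columns of datasets A and B, joined by feature name, with 60 other per-sample columns left out. Names came from the files and GENCODE M21 (25755 of 29777 Ensembl identifiers matched), and coordinates are those of the files (mm9).

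Counts were tested with edgeR 4.0.16 (quasi-likelihood, robust, TMM, filterByExpr) over the 12 libraries of dataset A with 4 group means, and dataset B apart. Features were called at a Benjamini-Hochberg adjusted p under 0.05. DESeq2 1.42.0, limma 3.58.1 (voom with quality weights), other scalings and filters, a replicate block and the omission of each library were alternatives. Class shares used exact permutation tests. In edgeR, p-values measure the spread between these samples, estimated for dataset A over all 12 libraries, mock included.

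Named features were the 12 highest and 12 lowest called, averaging 10 counts or more in the group where they were higher, with no overlap of libraries and a symbol, the 4 smallest p of each list, and fixed genes; others were added after their values were seen. The members and gene lists were chosen with earlier results of these data known. Lists are described by counts and medians only, and sequences are from GENCODE M21 and RefSeq. Dataset C was not used here, and some single genes are not reported here.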

Additional observations from a re-analysis of the deposited data

Results flagged for a closer look

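The values here are the difference in log2 fold change of WT over RM under palmitate between dataset A and dataset B, from the fit of both, for features named in the report that were called in dataset A and whose difference between the datasets passed that test (edgeR, adjusted p under 0.05). Choosing features by their call in dataset A favours a difference in the direction seen there. Of the 388 features called in dataset A, 159 passed, against 379 of all 12683 in the fit. Among mitochondrial features the difference was 5.0 for mt-Ti, 5.03 for mt-Ty, 4.86 for mt-Tt, 4.78 for mt-Nd5, 4.20 for mt-Ts1, 3.82 for mt-Nd6 and 3.32 for mt-Tp. It was 4.38 for mt-Nd4l, 4.24 for mt-Cytb and 3.49 for mt-Co1. For messages with an inverted repeat it was 4.24 for Eapp, 3.64 for Car5b, 2.95 for Wdr76, 2.73 for both Slc35e2 and Rnf168, 2.69 for Zfp874b, 2.30 for Rpa1 and 2.02 for Nudt21. Tapbp differed by 2.92.

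For rRNA, tRNA and predicted genes it was 5.25 for Gm23935, 3.15 for n-R5-8s1, 3.28 for AA474408, 6.87 for chr16.tRNA50-ThrCGT and 8.60 for Gm10719, the last of which had no counts in any RM palmitate library of dataset A, so that its fitted value depends on the prior count. Among interferon-stimulated genes it was 2.78 for Oasl2, 2.75 for Trim30a and 1.82 for Dtx3l. Xbp1 differed by 1.55, Hist1h4c by 2.04, Hist1h4h by 1.83 and Rpl11 by -1.12. When RM palmitate replicates 1, 2 and 3 of dataset B were left out in turn, the difference missed the threshold in at least 1 of these fits for mt-Ti, mt-Ty, mt-Nd6, mt-Tp, Zfp874b, chr16.tRNA50-ThrCGT, Gm10719, Oasl2, Xbp1, Hist1h4c, Hist1h4h and Rpl11, with a highest adjusted p of 0.0528 for Xbp1 to 0.406 for Oasl2, and passed in all 3 for the others named here. Without both replicates 2 and 3, which leaves 1 RM palmitate library in dataset B, assumed to vary like the other groups, adjusted p was 0.0716 for mt-Nd5, 0.273 for Car5b, 0.0123 for Eapp and 0.00167 for Rpa1.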

How the results depend on the processing

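The number called under palmitate was 1062 with limma-voom, 840 with no filter and 133 with only the groups compared, and 201 to 759 leaving out 1 library. In mock it was 240 with total counts, 1956 with limma-voom, 723 with no filter, 1552 with only the groups compared, and 200 to 308 without 1 library. The palmitate minus mock difference gave 88 with no filter. In dataset B it was 2561 with limma-voom and 112 to 2500 without 1 library.

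Interferon-stimulated genes higher numbered 5 with total counts, 7 with DESeq2, 19 with limma-voom, 4 at a mean of at least 50 counts, 6 with only the groups compared and 5 to 15 without 1 library, with medians of 0.47 with total counts and 0.39 at 50 counts. Nuclear tRNA features higher numbered 58 with limma-voom, 68 with no filter, 16 with only the groups compared and 14 to 70 without 1 library. Named miRNAs lower numbered 24 with total counts, 21 with limma-voom, 34 with no filter, 6 at 50 counts, 7 with only the groups compared and 4 to 15 without 1 library. Inverted-repeat transcripts higher numbered 22 with only the groups compared and 22 to 44 without 1 library, with a median of -0.17 under total counts, and the share with a repeat was 9.94% at a score of 80. C/D snoRNAs higher numbered 1 with DESeq2, 1 with limma-voom, 16 with no filter and 0 to 1 without 1 library, and H/ACA 12 with no filter and 0 to 1.

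The WT minus RM difference in percent of counts turned sign for rRNA (5.08 from pooled counts, -4.42 to 7.05 without 1 library), mitochondrial RNA (-0.193 pooled, -0.107 to 0.487 without 1 library), C/D snoRNA (-0.021 to 5.59 without 1 library), H/ACA snoRNA (-0.0507 to 0.0886), scaRNA (0.000245 pooled) and other small RNA (0.0586 without rRNA and Lars2, -0.437 to 0.467 without 1 library). Log2 fold changes near 0 turned for mt-Rnr1 (-0.50 to 0.11 without 1 library), mt-Rnr2 (-0.21 with total counts, -0.10 to 0.47 without 1 library), mt-Tm (0.16 with limma-voom, -0.26 to 0.32), mt-Tl1 (0.24 with limma-voom, -0.28 to 0.38), Snord33 (-0.08 to 0.77) and Prkra (-0.20 with total counts, -0.14 to 0.46). The causes were not tested.

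With a replicate block the number called was 347 under palmitate, 448 in mock and 1250 in dataset B, and 20 miRNAs were lower. Deviations of same-numbered palmitate libraries correlated at 0.02, 0.08 and 0.19, and WT replicate 1 did not correlate best with its own number, so the numbers were not taken as pairs.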
